A study of Mus musculus with 16 samples.

Results

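The comparison described here set bone marrow-derived macrophages given lipopolysaccharide (LPS) for 6 h against the unstimulated macrophages of the same experiment. Its members were chosen by their group labels and comprise 4 of the 16 arrays of the series, 2 for LPS and 2 for unstimulated cells. The series asked how dexamethasone (Dex), a synthetic glucocorticoid, alters the response to LPS, and ran as 2 separate experiments with 3 h and 6 h of LPS. The LPS group was kept overnight in ethanol, the vehicle of Dex, before LPS was added, and the unstimulated group received ethanol overnight and no LPS. The 2 further groups of the 6 h experiment, Dex at 1 µM with LPS and Dex at 1 µM alone, with 2 arrays each, entered the fit and one later comparison. All cells were primary macrophages grown from the marrow of wildtype C57BL/6J male mice aged 10 weeks. The dose of LPS and the number of mice are not given in the sources used here. Both arrays of a group are technical replicates per the labels. The p-values below therefore rest on array-to-array spread, and the spread of cultures or mice was not measured. In bulk RNA, a change in the number of cells of a type and a change in the RNA per cell cannot be told apart.

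LPS is a component of the outer membrane of Gram-negative bacteria. Macrophages bind it through CD14 and the complex of Toll-like receptor 4 with its co-receptor MD-2. The receptor signals through the adaptor MyD88 to NF-kB and MAP kinases, which switch on cytokine genes, and through the adaptor TRIF to interferon regulatory factors, which switch on interferon beta. Secreted interferon beta then acts back on the same cells, and induced inhibitors bring the signal down again.

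Illumina mouse bead arrays measured 25697 probes. On the 4 arrays 10407 to 10488 probes were detected (40.5% to 40.8%), at a median signal of 154 to 184. Levels below are normalized log2 intensities of a gene's probe, and they rank arrays, not genes. Changes are log2 differences, LPS minus unstimulated, ± SE from the fit, with n = 2 arrays per group. To be called, a gene had to differ by 2-fold or more with an adjusted p under 0.05. Where neither array of the dimmer group was above background, or both arrays of the brighter group were saturated, the fold is a bound and is written "at least".

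The macrophage label was borne out by the defining markers. All 10 macrophage markers with a named probe were detected. Adgre1, which encodes the surface protein F4/80, stood at 15.29 and 15.22 on the LPS arrays, against 15.35 and 15.27 on the unstimulated arrays. Csf1r, for the receptor of macrophage colony-stimulating factor, stood at 14.24 and 14.20 on the LPS arrays, against 14.65 and 15.13 on the unstimulated arrays. Of this list only Cd14 was called, although another detected Adgre1 probe, less bright than the one used, was higher (1.28, adjusted p = 0.00207). No marker of T cells (0 of 7 with a probe), NK cells (0 of 6), dendritic cells (0 of 7), mast cells and basophils (0 of 5) or erythroid cells (0 of 5) was detected. Of 6 B cell markers, Cd79b alone was detected, near background (5.84 and 5.79 on the LPS arrays, against 6.63 and 6.99 on the unstimulated arrays). Of 9 markers of neutrophils and their precursors 8 were detected and none was called. S100a8, a calcium-binding protein gene abundant in neutrophils, stood at 14.84 and 15.01 on the LPS arrays, against 15.14 and 15.30 on the unstimulated arrays, and the granule enzyme gene Mpo at 8.44 and 8.29 on the LPS arrays, against 8.81 and 8.66 on the unstimulated arrays. The summed linear level of that list was 43039 and 45935 on the LPS arrays, against 52887 and 59667 on the unstimulated arrays. Of 10 stromal and endothelial markers, Dcn (8.65 and 8.02 on the LPS arrays, against 7.47 and 6.41 on the unstimulated arrays) and Pdgfrb (6.07 and 6.09 on the LPS arrays, against 4.99 and 5.06 on the unstimulated arrays, where it was not above background) were detected and both were called higher, Dcn not called without LPS replicate 1 (1.08) or unstimulated replicate 2 (0.86), while the collagen genes of that list were not detected. Their summed level was 468 and 328 on the LPS arrays and 209 and 118 on the unstimulated arrays, and their part in the results was not tested.

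LPS raised 656 of 7791 genes tested (8.42%) and lowered 679 (8.72%). On every called gene both LPS arrays lay on the same side of both unstimulated arrays. Such separation was seen in 29.5% of all genes upward and 41% downward, and is no call by itself. The called rises were larger than the called falls at the extremes. Of the raised genes 177 rose at least 4-fold, 61 at least 8-fold and 22 at least 16-fold on the fitted scale, against 111, 21 and 3 of the lowered genes. The median called rise was 1.45 and the median called fall -1.34, while the median of all genes was -0.09. Among raised genes 115 (17.5%) were not above background on either unstimulated array, and 6 were saturated with LPS. Among lowered genes 123 (18.1%) were not above background on either LPS array. Without a minimum fold, 1269 genes were higher (16.3%) and 1685 lower (21.6%). The balance depended on scaling. With arrays scaled by their medians the overall median change shifted by 0.139, and 848 genes were called higher and 480 lower, so that 63.9% of calls were rises, against 49.1% with quantile normalization. The authors' processed values gave 511 higher and 273 lower (65.2% rises), while 161 and 43 (78.9%) came from their cubic spline values. The probes of the cubic spline table are ordered differently from those of the unnormalized table (rank correlation 0.885 to 0.923 for arrays of the same label), and in it 107 of the 194 called genes named here lost their call and 14 had the other sign.

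**Figure D1:**
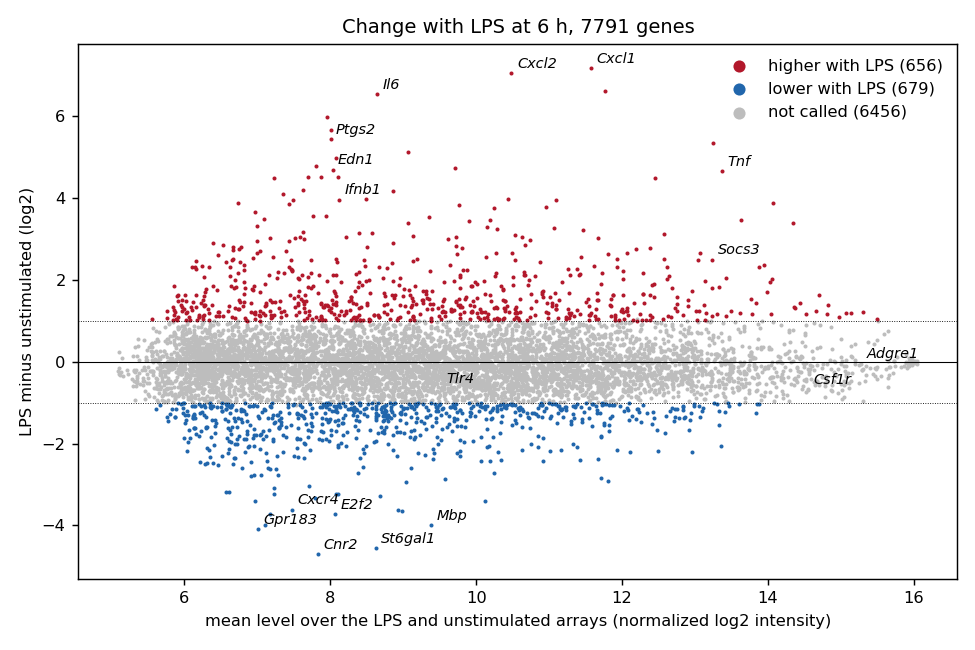
Change with LPS (log2, LPS minus unstimulated) against the mean level over the 4 arrays, with 1 point per gene and dotted lines at 2-fold. Red points are the 656 genes called higher, blue points the 679 called lower and grey points the 6456 not called. Rises reach 7.16 for Cxcl1 and falls -4.71 for Cnr2, whose LPS arrays were not above background.

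The 5 largest rises on the fitted scale were in genes for secreted signals. Genes whose fold is only a bound may stand elsewhere in that order. Cxcl1, for a chemokine that draws neutrophils, stood at 15.12 and 15.19 on the LPS arrays, against 8.48 and 7.51 on the unstimulated arrays, and changed by 7.16 ± 0.30 (143-fold, adjusted p = 1.56e-07). Cxcl2, its close relative, stood at 14.02 and 13.99 on the LPS arrays, against 6.72 and 7.20 on the unstimulated arrays. Il1a, for interleukin 1 alpha, stood at 15.01 and 15.14 on the LPS arrays, against 8.60 and 8.33 on the unstimulated arrays. In all 3 the LPS arrays lay close together, far above the unstimulated arrays. Il6 stood at 11.95 and 11.87 on the LPS arrays, against 5.48 and 5.29 on the unstimulated arrays, where unstimulated cells were at background, and was at least 53.9-fold higher. Bounds of at least 27.6-fold were found for Il12a, which encodes the p35 chain of interleukin 12, and of at least 21.2-fold for Il27, both higher with LPS. Edn1, for the vessel-constricting peptide endothelin 1, rose by 4.68 ± 0.29, with its unstimulated arrays a whole unit apart (10.52 and 10.23 on the LPS arrays, against 5.19 and 6.19 on the unstimulated arrays).

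The list of the 30 largest rises also held genes that encode no secreted signal. Mycl, for a transcription factor of the MYC family, stood at 10.81 and 10.87 on the LPS arrays, against 5.14 and 5.22 on the unstimulated arrays and was at least 25.7-fold higher. Gja1, for the gap junction protein connexin 43, stood at 11.66 and 11.57 on the LPS arrays, against 6.26 and 6.77 on the unstimulated arrays and rose by 5.10 ± 0.21 (34.4-fold). Slc1a2, for a glutamate transporter best known from astrocytes, stood at 10.16 and 10.21 on the LPS arrays, against 5.32 and 5.52 on the unstimulated arrays and was at least 16.3-fold higher. The unstimulated cells had no signal above background for Mycl or Slc1a2. Dgat2, for the enzyme that makes the last step of triglyceride synthesis, was at least 15.7-fold higher. Hcar2, for a receptor of nicotinic acid and ketone bodies, stood at 10.80 and 11.08 on the LPS arrays, against 6.77 and 6.77 on the unstimulated arrays. Cd69, an early activation antigen gene known from lymphocytes, stood at 14.73 and 14.66 on the LPS arrays, against 10.17 and 10.28 on the unstimulated arrays. Slamf1, for a self-binding receptor of immune cells, was at least 11.8-fold higher. Phlda1 rose by 4.51 ± 0.47 and had the widest error of the 30, its LPS arrays lying at 10.08 and 10.65 and its unstimulated arrays at 6.24 and 5.47. Schip1 (at least 13.8-fold), Shisa3 (at least 9.92-fold), Tpbg (at least 9.42-fold) and the keratin gene Krt16 (at least 9.81-fold) were higher too, and unstimulated cells had none of them above background.

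**Figure D2:**
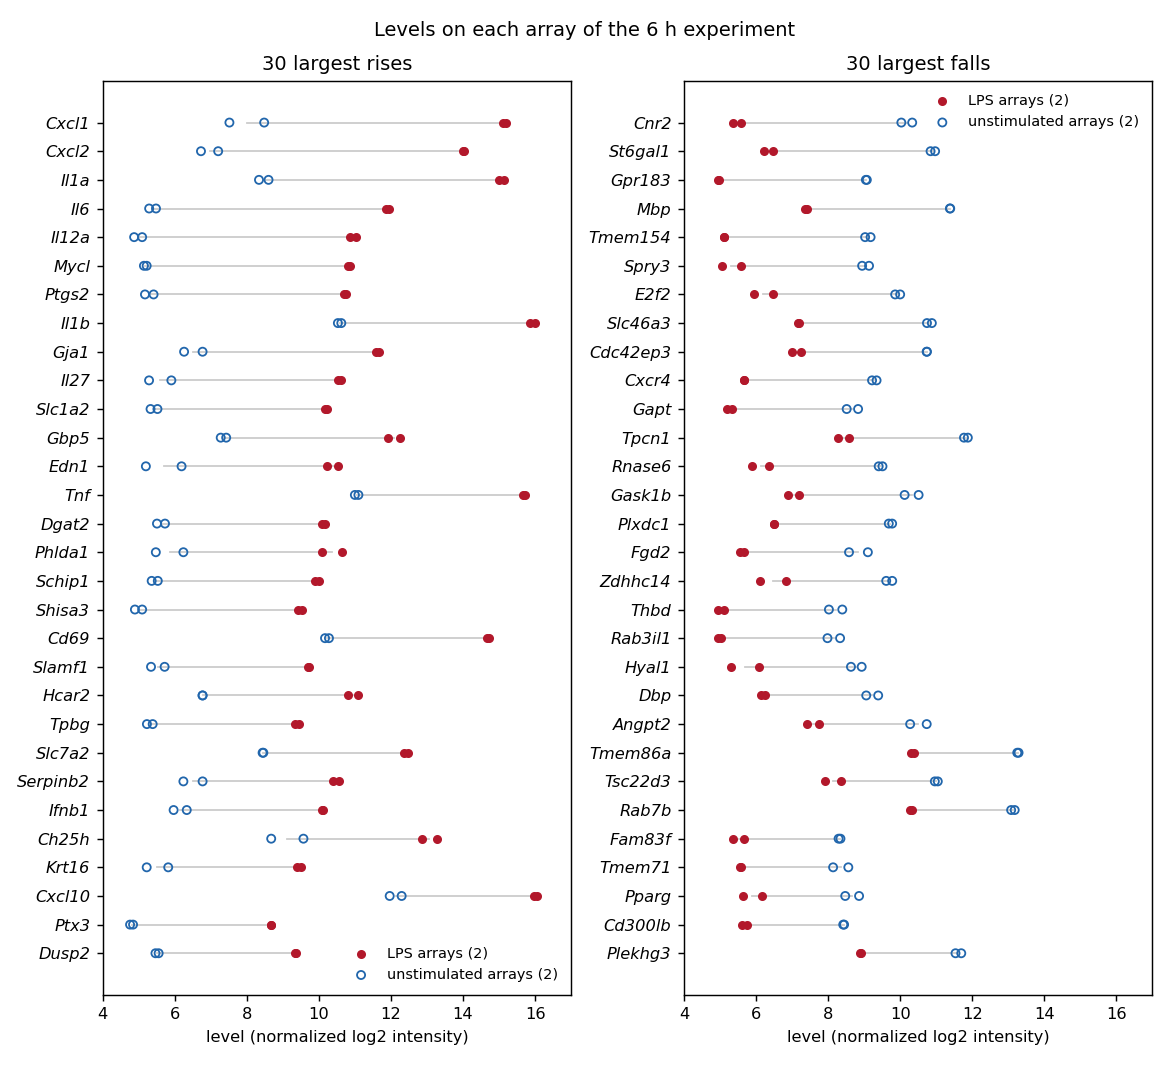
Normalized log2 level on each array for the 30 genes with the largest rise (left) and the 30 with the largest fall (right), with filled red points for the LPS arrays and open blue points for the unstimulated arrays. In every row both red points lie on the same side of both blue points, and the grey line joins the group means.

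The stretch before the start of 6 of these genes and of Nfkbia is shown because NF-kB and interferon regulatory factors are known to bind such stretches, and these 7 were chosen because they hold a match. RefSeq's promoter table (GRCm38.p6), which spans 250 bases before to 50 after each start, held 693 promoters of 517 of the 656 raised genes. The letters GGAA and TCCC with any 2 bases between them, on either strand, form a textbook NF-kB site, and a repeated GAAA with any 2 bases between is the core of an interferon response element. In the 250 bases printed here, 5′ to 3′ on the gene's strand, capitals mark matches to either. In these 250 bases 23 genes among the 30 largest rises were searched. Of these genes 6 held the NF-kB letters, 3 the interferon response letters and 16 neither, Il1a, Il1b, Tnf and Ptgs2 among them.

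Cxcl1: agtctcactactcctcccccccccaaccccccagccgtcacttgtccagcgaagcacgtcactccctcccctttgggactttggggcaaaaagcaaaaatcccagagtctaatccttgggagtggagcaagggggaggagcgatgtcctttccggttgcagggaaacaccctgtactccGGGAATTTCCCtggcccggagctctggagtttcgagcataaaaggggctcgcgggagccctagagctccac
Cxcl2: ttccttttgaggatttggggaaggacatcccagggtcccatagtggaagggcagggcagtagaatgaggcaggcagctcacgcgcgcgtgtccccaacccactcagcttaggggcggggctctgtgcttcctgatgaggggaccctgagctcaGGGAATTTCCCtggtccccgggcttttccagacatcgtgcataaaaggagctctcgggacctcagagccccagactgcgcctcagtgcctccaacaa
Il6: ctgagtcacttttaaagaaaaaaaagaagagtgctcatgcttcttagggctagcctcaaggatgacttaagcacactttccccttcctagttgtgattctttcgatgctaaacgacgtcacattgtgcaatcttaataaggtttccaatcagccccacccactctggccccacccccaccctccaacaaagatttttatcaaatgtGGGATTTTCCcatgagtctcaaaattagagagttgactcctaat
Ifnb1: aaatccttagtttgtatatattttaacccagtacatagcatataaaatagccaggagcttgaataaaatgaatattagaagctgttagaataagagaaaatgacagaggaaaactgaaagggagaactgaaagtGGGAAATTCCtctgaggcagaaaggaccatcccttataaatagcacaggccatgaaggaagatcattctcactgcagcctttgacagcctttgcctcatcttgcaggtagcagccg
Cxcl10: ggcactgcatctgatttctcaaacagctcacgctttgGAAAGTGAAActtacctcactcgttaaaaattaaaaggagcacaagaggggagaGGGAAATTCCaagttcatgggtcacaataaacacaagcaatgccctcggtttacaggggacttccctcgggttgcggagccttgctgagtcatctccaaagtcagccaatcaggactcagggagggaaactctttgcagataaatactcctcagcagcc
Gbp5: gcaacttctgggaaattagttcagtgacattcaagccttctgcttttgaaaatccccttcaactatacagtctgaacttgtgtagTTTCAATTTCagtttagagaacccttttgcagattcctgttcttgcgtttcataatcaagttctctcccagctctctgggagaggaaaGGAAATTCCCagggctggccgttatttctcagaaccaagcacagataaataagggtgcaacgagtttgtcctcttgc
Nfkbia: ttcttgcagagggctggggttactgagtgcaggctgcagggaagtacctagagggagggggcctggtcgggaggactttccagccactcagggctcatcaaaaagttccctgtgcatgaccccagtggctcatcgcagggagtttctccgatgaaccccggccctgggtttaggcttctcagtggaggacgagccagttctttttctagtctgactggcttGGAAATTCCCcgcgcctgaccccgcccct

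These lie at chr5:90890995-90891244 (plus strand) for Cxcl1, chr5:90903649-90903898 (plus strand) for Cxcl2, chr5:30012864-30013113 (plus strand) for Il6, chr4:88522795-88523044 (minus strand) for Ifnb1, chr5:92348890-92349139 (minus strand) for Cxcl10, chr3:142496684-142496933 (plus strand) for Gbp5 and chr12:55492648-55492897 (minus strand) for Nfkbia. In Cxcl1 and Cxcl2 the 11 capitals are the same letters, hold overlapping matches on both strands and begin 71 and 97 bases before the start. The first capital lies 44 bases before the start of Il6, 116 before that of Ifnb1 and 29 before that of Nfkbia. Cxcl10 and Gbp5 hold a match to each set of letters. The NF-kB letters were present in 23 of 693 promoters of raised genes (3.32%), in 10 of 729 of lowered genes (1.37%) and in 124 of 8300 of all genes tested (1.49%). Among genes raised at least 8-fold they were in 7 of 58 (12.1%). The interferon response letters were in 6.06% of promoters of raised genes, 2.88% of lowered genes and 3.36% of all genes tested. A looser NF-kB pattern, GGG and CC with any 5 bases between them, which overlaps the first, was in 64.5% of promoters of raised genes, 66.5% of lowered genes and 66.4% of all genes tested. A match is a description of letters and not of binding.

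The list of the 30 largest falls held genes of several kinds. Cnr2, for the cannabinoid receptor CB2, stood at 5.36 and 5.59 on the LPS arrays, against 10.33 and 10.03 on the unstimulated arrays and was at least 16.3-fold lower. St6gal1, for the enzyme that adds alpha-2,6-linked sialic acid to glycoproteins, stood at 6.48 and 6.21 on the LPS arrays, against 10.84 and 10.97 on the unstimulated arrays (-4.56 ± 0.18, adjusted p = 1.48e-07). Gpr183, for the oxysterol receptor EBI2, stood at 4.98 and 4.95 on the LPS arrays, against 9.05 and 9.07 on the unstimulated arrays, at least 7.51-fold lower. As for every called gene, their arrays did not overlap between the groups, which held downward for 41% of all genes. Mbp, the myelin basic protein gene, which also yields golli transcripts in blood cells, stood at 7.36 and 7.41 on the LPS arrays, against 11.38 and 11.39 on the unstimulated arrays. Tmem154 was at least 7.73-fold lower and Spry3, of the Sprouty family of growth factor signal inhibitors, at least 7.40-fold. Slc46a3, for a lysosomal transporter, changed by -3.64 ± 0.16, and Tpcn1, for a two-pore channel of endosomes, by -3.40 ± 0.25 (8.57 and 8.26 on the LPS arrays, against 11.77 and 11.88 on the unstimulated arrays). Cdc42ep3, for an effector of the GTPase CDC42, changed by -3.62 ± 0.19. Rnase6, for a ribonuclease that is antimicrobial in human, changed by -3.33 ± 0.24. Thbd, for the anticoagulant receptor thrombomodulin, was at least 4.16-fold lower and Hyal1, a hyaluronidase gene, at least 6.19-fold. Angpt2, for the vessel ligand angiopoietin 2, stood at 7.74 and 7.41 on the LPS arrays, against 10.27 and 10.73 on the unstimulated arrays. Rab7b, for a GTPase known to send Toll-like receptor 4 to lysosomes, stood at 10.27 and 10.32 on the LPS arrays, against 13.08 and 13.18 on the unstimulated arrays and changed by -2.83 ± 0.16. Tmem86a, a lysoplasmalogenase family gene, stood at 10.30 and 10.38 on the LPS arrays, against 13.28 and 13.25 on the unstimulated arrays.

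The counts of each gene list below stand beside 8.42% higher and 8.72% lower among all genes tested. A list with shares near these shows no trait of its own. Of 14 tested genes of the receptor complex and the Toll-like receptors, 4 rose, 2 fell and 8 were not called (median 0.01). Tlr4 itself stood at 9.18 and 9.22 on the LPS arrays, against 9.95 and 9.74 on the unstimulated arrays, a change of -0.65 ± 0.19 that was below 2-fold (adjusted p = 0.0212). Ly96, for MD-2, stood at 11.32 and 11.30 on the LPS arrays, against 11.06 and 10.72 on the unstimulated arrays and was not called (adjusted p = 0.122). Cd14 was at least 2.33-fold higher with its probe saturated on the LPS arrays. Tlr1 (2.12 ± 0.21) and Tlr6 (1.72 ± 0.21), whose products pair with TLR2 on bacterial lipopeptides, rose, while Tlr2 stood just under the fold limit (0.97 ± 0.18). Tlr3, for a sensor of double-stranded RNA, rose by 1.15 ± 0.16. Tlr13, for a sensor of bacterial ribosomal RNA, fell (-1.45 ± 0.21).

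Among 19 tested adaptors and kinases downstream of the receptors, 6 rose and none fell. Irak2, for the kinase that sustains late signaling, stood at 11.96 and 12.22 on the LPS arrays, against 9.68 and 9.64 on the unstimulated arrays and rose by 2.43 ± 0.22. Irak3, for the inhibitory family member IRAK-M, rose by 1.29 ± 0.18, and the ubiquitin ligase gene Peli1 by 1.62 ± 0.20. Myd88 stood at 13.67 and 13.69 on the LPS arrays, against 12.60 and 12.27 on the unstimulated arrays (1.24 ± 0.18). Ticam2, for the adaptor that links the receptor to TRIF, rose by 1.21 ± 0.18, while Ticam1, for TRIF, was not called (0.23 ± 0.19, adjusted p = 0.373). Ikbkb, for a kinase of IkB, rose by 1.39 ± 0.21. Tbk1, for the kinase of interferon regulatory factors, was not called (0.79 ± 0.16). Of 16 cytosolic sensors 6 rose and 1 fell. Ifi205 led (2.77 ± 0.20), followed by Nlrp3, the inflammasome sensor gene (at least 2.03-fold), Nod2 (1.73 ± 0.21), a sensor of bacterial muramyl dipeptide, and Ifih1 (1.64 ± 0.22), the sensor of long double-stranded RNA. Pycard, for the inflammasome adaptor ASC, fell and stood at 8.24 and 8.18 on the LPS arrays, against 10.08 and 10.10 on the unstimulated arrays.

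Of 10 NF-kB and IkB genes 5 rose, none fell and the median was 1.35. Nfkbiz, for the nuclear IkB protein that opens secondary genes such as Il6, rose by 3.01 ± 0.27. Nfkbia, for the inhibitor that NF-kB itself induces, stood at 13.81 and 13.84 on the LPS arrays, against 11.40 and 11.24 on the unstimulated arrays. Rel was at least 6.03-fold higher and Nfkb2 rose by 1.78 ± 0.18. Rela, the constitutive subunit gene, was not called (0.79 ± 0.20). Of 17 AP-1, ATF and EGR genes 6 rose, with Batf (2.54 ± 0.22) and Batf2 (2.49 ± 0.18) after Egr1 (3.29 ± 0.23), and Fos fell (-1.49 ± 0.19). Jun (-0.62 ± 0.23) and Atf3 (0.95 ± 0.19) were not called. Of 12 IRF and STAT genes only Irf1 (1.93 ± 0.20) and Stat4 (1.88 ± 0.22) rose. Irf7, a gene that interferon usually induces, stood at 12.82 and 13.09 on the LPS arrays, against 12.71 and 12.62 on the unstimulated arrays and was not called (adjusted p = 0.341).

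Of 21 transcription factors of macrophage identity, 2 rose (5 with median scaling) and 3 fell. These are 9.52% and 14.3%, against 8.42% and 8.72% of all genes tested. Spi1, for the macrophage master regulator PU.1, stood at 10.26 and 10.24 on the LPS arrays, against 9.63 and 9.18 on the unstimulated arrays, below the fold limit (0.84 ± 0.20). Ets2 rose by 1.80 ± 0.17. Klf4 rose by 1.41 ± 0.32 and was not called without LPS replicate 2 (1.30) or unstimulated replicate 1 (0.94). Pparg, for a lipid-sensing nuclear receptor, stood at 5.64 and 6.16 on the LPS arrays, against 8.47 and 8.86 on the unstimulated arrays and was at least 5.71-fold lower. Klf2, a restraint on macrophage activation, fell (-1.25 ± 0.20). Among 18 nuclear receptor and clock genes none rose and 4 fell, with Dbp, a clock output factor gene, at 6.25 and 6.13 on the LPS arrays, against 9.39 and 9.06 on the unstimulated arrays. Clock (0.11 ± 0.18), Arntl (-0.49 ± 0.18) and Per1 (0.36 ± 0.32), which form the clock's core loop, were not called.

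Of 19 feedback phosphatase, SOCS and deubiquitinase genes, whose products end the response, 12 rose (63.2%) and none fell, with a median of 1.26. Dusp2, a MAP kinase phosphatase gene, was at least 9.17-fold higher and Dusp16, its relative with preference for JNK, rose by 2.36 ± 0.17. Socs3, which stops signaling of the interleukin 6 receptor, stood at 14.64 and 14.32 on the LPS arrays, against 12.16 and 11.82 on the unstimulated arrays, and Socs1 was at least 5.06-fold higher. Cish rose by 2.12 ± 0.22. Tnfaip3, for the ubiquitin-editing enzyme A20, stood at 13.62 and 13.62 on the LPS arrays, against 11.45 and 11.78 on the unstimulated arrays (2.01 ± 0.19). Dusp1 was already high without LPS and was not called (13.24 and 13.10 on the LPS arrays, against 12.68 and 12.74 on the unstimulated arrays). Of 9 regulators of cytokine mRNA decay, Zc3h12a, for the ribonuclease regnase-1, rose (1.85 ± 0.20) and 3 fell, led by Zfp36l1 (-2.37 ± 0.17). Zfp36, for tristetraprolin, was just under 2-fold (0.97 ± 0.18).

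Of 24 tested interleukin and TNF family genes 16 rose (66.7%) and 2 fell, with a median of 1.90. Il1b stood at 15.85 and 15.98 on the LPS arrays, against 10.62 and 10.52 on the unstimulated arrays, where the LPS arrays were saturated, and was at least 40.7-fold higher. Tnf averaged 15.69 ± 0.05 on the LPS arrays, against 11.05 ± 0.07 on the unstimulated arrays (SD, n = 2 each), also saturated with LPS, and was at least 24.9-fold higher. Il10, for the cytokine that holds macrophages back, stood at 7.01 and 7.13 on the LPS arrays, against 5.64 and 5.30 on the unstimulated arrays, at least 1.89-fold higher. Tnfsf10, for the death ligand TRAIL, rose by 3.01 ± 0.23 and Lta, for lymphotoxin alpha, by 2.50 ± 0.18. Il16, for a T cell attractant, fell (-1.93 ± 0.20). Il18 was not called (0.89 ± 0.16), nor was Ebi3 (0.48 ± 0.23), for the partner subunit of interleukin 27.

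Of 17 growth factor genes 5 rose and 3 fell. Csf1, for the growth factor of macrophages themselves, was at least 7.75-fold higher. Its receptor gene Csf1r was below 2-fold (-0.67 ± 0.24, adjusted p = 0.0474). Csf3, for granulocyte colony-stimulating factor, rose by 2.30 ± 0.27 and Inhba, for the activin A subunit, by 3.22 ± 0.24. Pdgfa fell (-1.68 ± 0.27). Of 28 cytokine receptor genes 5 rose, led by Cd40 (3.45 ± 0.19) and Il15ra (2.76 ± 0.22), the receptor chain that presents interleukin 15 to lymphocytes, and 2 fell. Il1rn, for the interleukin 1 receptor antagonist, was not called (13.19 and 13.21 on the LPS arrays, against 12.98 and 12.89 on the unstimulated arrays).

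Of 9 tested CC chemokine genes 5 rose and of 8 CXC chemokine genes 4 rose, and none of either fell. Ccl3 stood at 16.02 and 16.05 on the LPS arrays, against 12.77 and 12.55 on the unstimulated arrays, at least 10.4-fold higher. Ccl2, which attracts monocytes, rose by 2.31 ± 0.23 and Ccl7 by 1.70 ± 0.19. Cxcl10 stood at 15.97 and 16.04 on the LPS arrays, against 12.29 and 11.96 on the unstimulated arrays, saturated with LPS, at least 14.7-fold higher. Ccl4 (a mean of 16.01 on the LPS arrays, against 15.28 on the unstimulated arrays) and Ccl5 (15.99 and 16.01 on the LPS arrays, against 15.82 and 15.79 on the unstimulated arrays) were close to the top of the scale in both groups, so that their changes are bounds of at least 1.66-fold and 1.14-fold and neither was called. Another, less bright Ccl4 probe was called higher (3.89). Among 9 chemoattractant receptor genes, Ccrl2, for a receptor that holds chemerin at the surface, rose by 3.27 ± 0.20, and Cxcr4, for the receptor that keeps cells in the marrow, stood at 5.68 and 5.65 on the LPS arrays, against 9.22 and 9.34 on the unstimulated arrays. Of 22 other G protein-coupled receptor and RGS genes 4 rose, among them Gpr84 (2.65 ± 0.23), for a receptor of medium-chain fatty acids, and 6 fell, among them P2ry1 (at least 3.39-fold), Gpr65 (-2.42 ± 0.19), for a proton sensor, and Gpr146 (-1.92 ± 0.18).

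Interferon genes were raised unevenly. Ifnb1 stood at 10.12 and 10.08 on the LPS arrays, against 5.96 and 6.33 on the unstimulated arrays and rose by 3.95 ± 0.19 (15.5-fold, adjusted p = 4.54e-07). The receptor kinase genes Jak2 (2.30 ± 0.19) and Tyk2 (1.27 ± 0.17) rose, and Stat2 (0.72 ± 0.19) and Irf9 (-0.00 ± 0.18), whose products carry the signal to the nucleus, were not called. Of 43 antiviral effector genes 17 rose (39.5%), 3 fell and 23 were not called. Ch25h, for the enzyme that makes the antiviral oxysterol 25-hydroxycholesterol, stood at 13.27 and 12.85 on the LPS arrays, against 8.67 and 9.57 on the unstimulated arrays. Mx1 (2.66 ± 0.20), Isg15 (2.50 ± 0.21), Cmpk2 (2.35 ± 0.17) and Trim21 (2.56 ± 0.27) rose. Ifit3 (15.58 and 15.75 on the LPS arrays, against 15.27 and 15.21 on the unstimulated arrays) was already high in unstimulated cells and was not called. Its LPS arrays lay near the levels at which Tnf was saturated (15.65 and 15.72), so its change may be capped. Another Ifit3 probe was higher (1.45). Ifitm3 was saturated in both groups (16.04 and 15.99 on the LPS arrays, against 16.03 and 16.02 on the unstimulated arrays) and could show no change. Ifitm1 was at least 1.68-fold lower. Of 9 interferon-inducible GTPases 7 rose and none fell (median 1.38), with Gbp5 at 12.24 and 11.91 on the LPS arrays, against 7.42 and 7.27 on the unstimulated arrays and Tgtp1, which has a near-identical copy that its probe may not tell apart, at 2.49 ± 0.19.

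Of 19 genes of class I antigen presentation 2 rose (10.5%, against 8.42% of all genes tested), both next to the fold limit. H2-M3, a non-classical class I gene (1.02 ± 0.20), was not called without LPS replicate 2 (0.95) or unstimulated replicate 2 (0.83). Psmb8, an immunoproteasome gene (1.01 ± 0.29), was not called without LPS replicate 2 (0.98), LPS replicate 1 (1.05) or unstimulated replicate 2 (0.52). With median scaling 7 of the 19 were called higher. B2m, the shared light chain gene, was saturated in both groups (15.94 and 15.96 on the LPS arrays, against 15.96 and 15.96 on the unstimulated arrays) and could show no change. In the list of class II and co-stimulation 7 of 21 rose and 2 fell. Cd274, for the T cell inhibitor PD-L1, rose by 2.03 ± 0.18, Icam1, for an adhesion ligand of lymphocytes, by 2.17 ± 0.20 and Slamf7 by 2.12 ± 0.18. Cd86 was not called (0.16 ± 0.22), nor was the class II gene H2-Aa (0.13 ± 0.17). Cd276 fell (-1.15 ± 0.18).

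Of 14 prostaglandin and leukotriene genes 2 rose and 2 fell. Ptgs2, for cyclooxygenase 2, stood at 10.74 and 10.70 on the LPS arrays, against 5.41 and 5.17 on the unstimulated arrays, at least 23.7-fold higher, and Ptges, for the prostaglandin E synthase that works with it, rose by 3.77 ± 0.24. Pla2g15, a lysosomal phospholipase gene, fell (-2.19 ± 0.20), and Alox5ap, needed for leukotrienes, was not called (-0.71 ± 0.17). Nos2, for inducible nitric oxide synthase, stood at 9.39 and 9.68 on the LPS arrays, against 5.92 and 6.06 on the unstimulated arrays, at least 10.4-fold higher. Slc7a2, which imports its substrate arginine, rose by 3.98 ± 0.16, and Gch1, for the first enzyme of its cofactor's synthesis, by 1.30 ± 0.20. Ass1, which rebuilds arginine, was not called (0.14 ± 0.30). Arg1 was not detected, so no change is given for it. Il12b and Irg1 have no named probe and were not analysed here. Of 28 oxidase and antioxidant genes only Slc7a11 (1.89 ± 0.19), the cystine importer gene, and Txnrd1 (1.56 ± 0.19) rose, and Sod2 was not called (0.47 ± 0.17). With median scaling 6 of these 28 were higher. Of 17 iron genes Lcn2, for the siderophore-binding protein lipocalin 2, was 1 of 2 that rose (1.34 ± 0.20). Slc40a1, for the iron exporter ferroportin, was not called (-0.73 ± 0.19).

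Of 23 genes of matrix proteases and their inhibitors 8 rose (5 without background correction) and 2 fell. Serpinb2, for an inhibitor of plasminogen activators, stood at 10.56 and 10.39 on the LPS arrays, against 6.24 and 6.77 on the unstimulated arrays. Adamts4, for an aggrecan-cutting protease, was at least 6.20-fold higher and the collagenase gene Mmp13 rose by 2.47 ± 0.21. Timp2, for an inhibitor of metalloproteinases, fell (-2.08 ± 0.23). Among 17 acute-phase and antimicrobial genes Ptx3, for a pentraxin that tags microbes, was at least 5.71-fold higher. Saa3 was saturated on the LPS arrays and close to that level without LPS (15.84 and 15.81 on the LPS arrays, against 15.74 and 15.70 on the unstimulated arrays), so that its change is a bound of at least 1.08-fold, and it was not called. Of 13 complement genes only C2 rose (1.04 ± 0.22), and it was not called without LPS replicate 2 (0.99) or unstimulated replicate 2 (0.92). Among the others, C1qa (-0.45 ± 0.17) and Cfb (0.00 ± 0.19) were not called.

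Of 31 Fc receptor and immunoreceptor adaptor genes 5 rose and 8 fell (5 with median scaling). Fcgr2b, the inhibitory IgG receptor gene, rose by 1.79 ± 0.18. The 8 included 4 genes of the CD300 family of lipid-binding receptors, Cd300lb (at least 4.85-fold lower), Cd300a (at least 2.84-fold lower), Cd300lf (-1.44 ± 0.23) and Cd300ld (-1.19 ± 0.17). Of 16 lectin and TREM genes 5 rose and 4 fell. Clec4e, for the sensor of mycobacterial glycolipid Mincle, rose by 1.23 ± 0.20 and Trem3 by 2.24 ± 0.18. Clec7a, for the fungal glucan receptor dectin-1, fell (-1.40 ± 0.17), as did Trem2 (-1.23 ± 0.17). Of 21 efferocytosis genes 5 rose and 6 fell (3 without background correction). Xkr8, for a scramblase that exposes phosphatidylserine, rose by 2.64 ± 0.17, Axl, for a receptor of apoptotic cells, by 1.25 ± 0.25, and Havcr2, for TIM-3, fell and stood at 5.30 and 6.43 on the LPS arrays, against 8.41 and 8.58 on the unstimulated arrays. Mertk, the relative of Axl, was not called (-0.61 ± 0.17). Of 23 integrin and adhesion genes Vcam1 rose most (3.04 ± 0.22) and Itgb5 fell most (-1.41 ± 0.23). Of 9 scavenger receptor genes Scarf1 rose (1.53 ± 0.27), Lrp1 fell (-1.34 ± 0.18) and Marco was not called (0.44 ± 0.19). Of 10 alternative activation genes 1 rose and 3 fell.

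**Figure D3:**
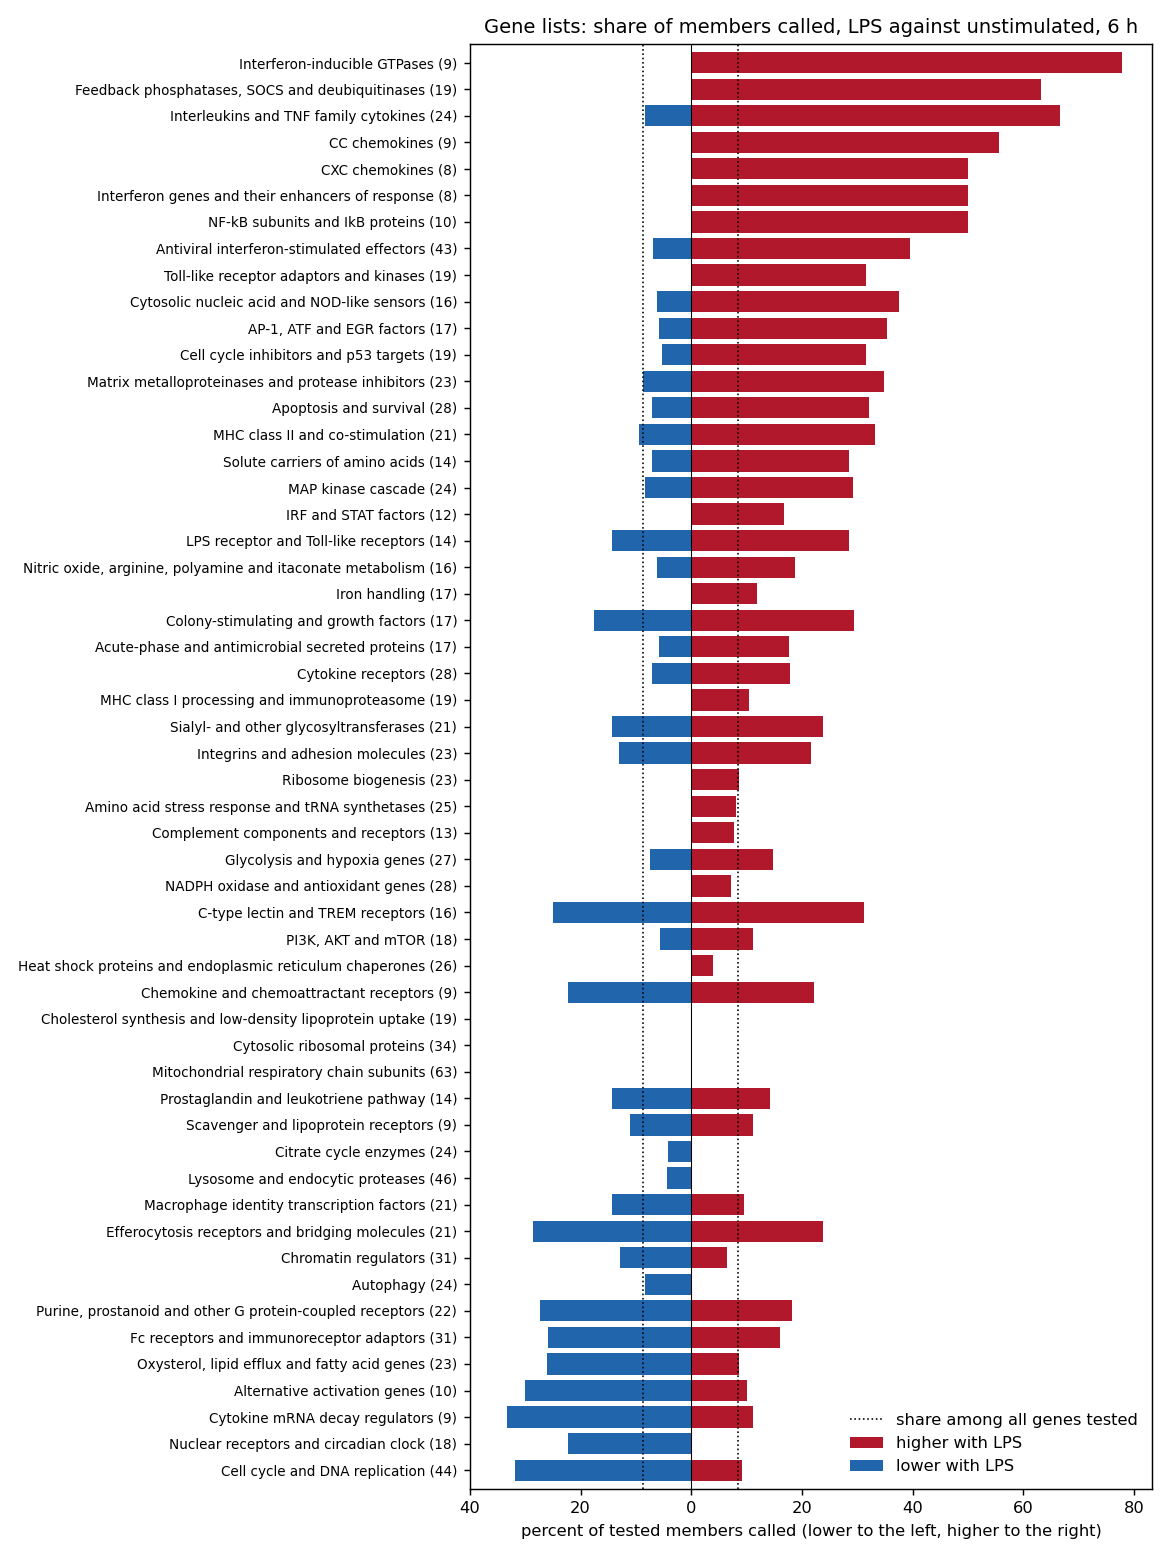
Percent of tested members called higher (red, to the right) and lower (blue, to the left) with LPS in each gene list, with the number of tested members in brackets and dotted lines at the 8.42% and 8.72% of all genes. Interferon-inducible GTPases (77.8% higher) stand at the top and cell cycle genes (31.8% lower) at the bottom.

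Of 27 glycolysis and hypoxia genes 4 rose (7 with median scaling, 1 without background correction) and 2 fell. Hif1a, for the factor that drives glycolytic genes, stood at 10.27 and 10.28 on the LPS arrays, against 8.64 and 8.98 on the unstimulated arrays (1.47 ± 0.18). Slc2a3, a glucose transporter gene, fell (-1.88 ± 0.23), while Slc2a1 (0.74 ± 0.26) and Ldha (-0.05 ± 0.18) were not called. Of 24 citrate cycle genes only Idh1 was called, and it stood at 10.76 and 11.21 on the LPS arrays, against 12.47 and 12.86 on the unstimulated arrays. None of 63 respiratory chain subunit genes was called in either direction (median -0.34, and -0.10 with median scaling, where 1 was higher). None of 19 cholesterol synthesis genes was called either (median 0.18). Of 23 genes of oxysterols, lipid efflux and fatty acids 2 rose and 6 fell. Cyp27a1, which makes 27-hydroxycholesterol, fell (-2.15 ± 0.25), the cholesterol exporter gene Abcg1 was at least 2.45-fold lower, and Fads1 fell by 1.35 on the log2 scale (SE 0.19). Fabp3, a fatty acid carrier gene, rose by 2.74 ± 0.23. Of 14 amino acid carrier genes 4 rose and Slc7a6 fell (-1.36 ± 0.24). Psat1, for a step of serine synthesis, rose by 2.51 ± 0.19, one of 2 risen genes among 25 of amino acid stress and tRNA charging, where Atf4 (-0.24 ± 0.22) and Asns (0.72 ± 0.17) were not called.

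Of 44 tested genes of the cell cycle and DNA replication 14 fell (31.8%) and 4 rose, with a median of -0.71 (14 and 4 became 5 and 2 in the authors' processed values, and 5 and 3 without background correction). E2f2, for a factor that drives entry into DNA synthesis, stood at 6.46 and 5.95 on the LPS arrays, against 9.86 and 10.00 on the unstimulated arrays. Ccnd1, for cyclin D1, fell by 2.23 on the log2 scale (SE 0.18), while Ccnd2, for cyclin D2, stood at 8.86 and 8.50 on the LPS arrays, against 5.20 and 6.13 on the unstimulated arrays and was at least 5.76-fold higher. Ccne1, for cyclin E1, was at least 3.09-fold higher. The centromere histone gene Cenpa (-2.00 ± 0.23), the mitotic kinase gene Aurka (-1.79 ± 0.24), Uhrf1 (-1.60 ± 0.27) and the replication helicase genes Mcm2 (at least 2.58-fold) and Mcm5 (-1.42 ± 0.23) were lower. Of 19 cell cycle inhibitor and p53 target genes 6 rose, led by the stress gene Gadd45b (2.06 ± 0.18) and the kinase inhibitor gene Cdkn2b (1.94 ± 0.18), and Sesn1 fell (-2.15 ± 0.19). Cdkn1a, for p21, rose by 1.15 ± 0.18.

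Of 28 apoptosis and survival genes 9 rose and 2 fell. The survival genes Bcl2a1d (3.04 ± 0.21) and Bcl2a1c (2.97 ± 0.20) rose, although their probes may not separate the near-identical Bcl2a1 copies. Traf1 (2.65 ± 0.21), an adaptor of TNF receptors, and Pim3 (1.87 ± 0.27), a survival kinase gene, rose. Bcl2l11, for the death-promoting protein BIM, stood at 8.76 and 8.60 on the LPS arrays, against 10.94 and 10.80 on the unstimulated arrays, and Bcl2 fell too (-1.12 ± 0.17). Mcl1 was not called (-0.47 ± 0.19). None of 34 ribosomal protein genes was called, and of 23 ribosome biogenesis genes 2 rose, led by Rcl1 (2.83 ± 0.16).

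Of 46 tested lysosomal genes none rose and 2 fell, and the median was -0.49 (-0.20 with median scaling). Sgsh, for a sulfatase that breaks down heparan sulfate, was at least 2.83-fold lower. Lipa, for the acid lipase that frees stored cholesterol, fell (-1.46 ± 0.37) and was not called without LPS replicate 2 (-1.04) or unstimulated replicate 2 (-1.14). Asah1 (-0.92 ± 0.18) and Lamp1 (-0.87 ± 0.18) were not called. Of 24 autophagy genes none rose and 2 fell, led by Map1lc3b (-1.18 ± 0.18). Of 26 chaperone genes only Hspa1a rose (2.46 ± 0.21), and Hspa8 was not called (0.22 ± 0.23).

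Of 31 chromatin regulator genes 2 rose (4 with median scaling) and 4 fell. These are 6.45% and 12.9%, near the 8.42% and 8.72% of all genes tested. Kat2b, for the acetyltransferase PCAF, rose by 2.03 ± 0.27, while Hdac5 (-2.16 ± 0.18) and Dnmt1 (-1.59 ± 0.20), for the maintenance DNA methyltransferase, fell. Of 24 MAP kinase cascade genes 7 rose (3 without background correction), among them Mapkapk2 (1.82 ± 0.20), whose product stabilises cytokine mRNAs, and Rasgef1b (1.97 ± 0.19), and Mknk2 fell (-1.87 ± 0.18). Of 18 PI3K and mTOR genes 2 rose, led by Rictor (1.89 ± 0.18), and 1 fell (11.1% and 5.56%, near the shares of all genes). Of 21 glycosyltransferase genes 5 rose and 3 fell, so that sialyltransferases moved in opposite directions. St3gal3, which adds alpha-2,3-linked sialic acid, stood at 11.68 and 11.68 on the LPS arrays, against 7.75 and 7.97 on the unstimulated arrays (3.82 ± 0.18), and St3gal5 (1.71 ± 0.17) and St3gal1 (1.56 ± 0.23) rose, beside the fall of St6gal1. Gcnt1, which branches O-glycans, fell (-2.72 ± 0.19).

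Detected probes of 1 gene did not always give the same call. Of 70 genes named here with several detected probes, 16 had a probe whose call differed from that of the probe used, and 4 of the 16 had one with the other sign. The called genes Bcl2l11 (0.30 with another probe), Csf3 (0.30), Mmp13 (0.53), Trim21 (0.34), Zfp36l1 (-0.15), Trem1 (-0.22), Ifitm1 (-0.41), Dusp16 (0.79), Rasgef1b (0.62), Sesn1 (-0.83), Bcl2 (-0.93) and Sri (0.41 and 0.73) were not called with it. Adgre1, Ccl4, Ifit3 and Per1 were called only with another probe, Per1 as lower (-1.09). Of 54 gene lists, the number of rises moved by over 1.5 times, or from or to 0, for 10 with median scaling and for 12 without background correction, and the number of falls for 8 and 16. With the authors' processed values rises moved for 12 lists and falls for 21, and with their cubic spline values for 39 and 35.

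The limits of the call can be read from the genes beside them. BC147527 was called higher at 1.001 and not called without LPS replicate 1 (0.90) or unstimulated replicate 1 (0.97). Lcp1, for an actin-bundling protein of blood cells, was left out at 0.998, although its arrays did not overlap (13.69 and 13.64 on the LPS arrays, against 12.69 and 12.64 on the unstimulated arrays). Crybg3 was called lower at -1.0002 and not called without LPS replicate 1 (-0.93) or unstimulated replicate 2 (-0.88). Selenop, a selenium carrier gene, was left out at -0.9992. Sri was called with an adjusted p of 0.0497 and was not called without Dex plus LPS replicate 2 (1.08), Dex plus LPS replicate 1 (1.08), LPS replicate 2 (0.92), LPS replicate 1 (1.25), unstimulated replicate 2 (1.08) or unstimulated replicate 1 (1.08). Fyb, at 1.03 ± 0.51, was not called (adjusted p = 0.134), and its unstimulated arrays lay far apart, at 10.98 and 12.39. Bach1 was not called lower at -1.05 ± 0.43 (adjusted p = 0.0779).

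The LPS response could be set against that of macrophages kept overnight in Dex, which share no array with it. Dex plus LPS against Dex gave 529 genes higher (6.79%) and 525 lower (6.74%) of the same 7791. Of the 656 genes raised without Dex, 386 were also raised with it, which is 58.8% of that list and 73.0% of the 529. Of the 679 lowered genes 337 were also lowered, 49.6% of that list and 64.2% of the 525. A gene called in 1 arm and not in the other is not thereby shown to differ. The difference itself, the response with Dex minus that without, was called for 44 genes (0.565%), 29 below 0 and 15 above. That count was not stable when 1 of the 8 arrays was left out. Each omission also leaves 1 array in a group and fewer values for the spread, and the 2 effects were not separated. The difference for Il1b ran from 1.21 to 1.34 over the omissions, while that for Klf4 ran from -3.07 to -2.14. Of the 16 genes named here for it, Vcam1, Ifnb1 and Ptx3 kept the call in all 8 omissions, Mycl lost it in 1, and the other 12 lost it in 6 or 7. Vcam1, for an adhesion ligand of leukocytes, had the lowest difference, -3.95 ± 0.31, with -0.90 ± 0.22 in the Dex arm, which was not called, and 3.04 ± 0.22 without Dex. Ifnb1 differed by -3.14 ± 0.27. Its level was 6.16 and 6.00 on the Dex plus LPS arrays, against 5.43 and 5.12 on the Dex arrays. Whether a gene was above background was recorded for the LPS and unstimulated arrays only, so this difference may be measured against background. Klf4 fell with Dex (-1.20 ± 0.32) where it rose without (1.41 ± 0.32). The difference for Kat2b (-2.26 ± 0.38) exceeded in size its rise without Dex (2.03), so that no rise was left with Dex. Tnfsf10 (-1.91 ± 0.33) and Ccl2 (-1.83 ± 0.32) had smaller responses with Dex. Mycl (-2.22 ± 0.23), Krt16 (-2.14 ± 0.32), Il6 (-1.49 ± 0.25) and Ptgs2 (-1.49 ± 0.24) did too. Ptx3 (2.49 ± 0.25), Trem1 (1.96 ± 0.28) and Rcl1 (1.58 ± 0.23) had larger responses with Dex. Of these 7 genes all but Rcl1 were not above background in unstimulated cells, so that their differences were measured against the floor and are not exact sizes. Mbp (1.96 ± 0.28) and Tsc22d3 (1.58 ± 0.29) fell less. Il1b differed by 1.27 ± 0.23, where the saturation of its LPS arrays caps the response without Dex. Its level was 15.55 and 15.49 on the Dex plus LPS arrays, against 15.85 and 15.98 on the LPS arrays. Without LPS its level was 8.92 and 8.88 on the Dex arrays, against 10.62 and 10.52 on the unstimulated arrays. For Cxcl1 and Cnr2, the extremes of the LPS response, the difference was not called (0.53 ± 0.43 and 1.54 ± 0.38).

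**Figure D4:**
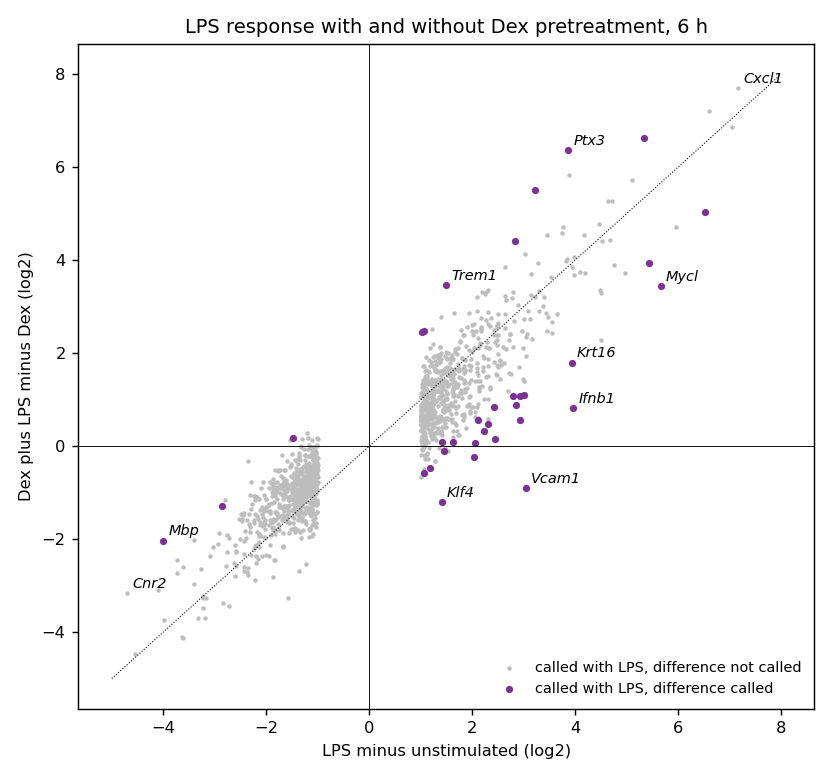
LPS response of Dex-pretreated macrophages (Dex plus LPS minus Dex, log2) against that of vehicle-treated macrophages (LPS minus unstimulated, log2) for the 1335 genes called with LPS against unstimulated. Purple points mark genes whose difference was called, Klf4 lies in the lower right with opposite signs, and the dotted line marks equal responses.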

How the data were processed

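RNA of bone marrow-derived macrophages was measured on Illumina mouse bead arrays, and the sample titles gave the groups. RNA of the 6 h experiment was column-purified with DNase treatment and labelled as biotin-cRNA per the labels' protocols, and the submitters' processing notes name GenomeStudio. The deposited unnormalized table of the 6 h experiment gives, per the file headers, a signal for each array, an intensity on a linear scale with background still in it, and a detection p-value. The deposited processed values of the 6 h arrays behave as log2 differences centred per probe, and these and the authors' cubic spline table served only as alternatives. The sources used here do not give how they were normalized, and 32 columns of bead numbers and bead errors were not used.

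In limma (version 3.58.1, R version 4.3.3), normexp background correction used the detection p-values with an offset of 16, and the 8 arrays were quantile normalized and taken as log2. Probes entered if at least 1 group had a detection p under 0.05 on each of its arrays. Probes were named through the platform annotation and RefSeq (23846 of 25697 with 1 symbol, 1851 not listed and unnamed here). For 2031 genes with several detected probes the one with the highest mean over the 16 arrays was used, and probes of 1 gene were never called in opposite directions. One mean per group was fitted with lmFit and eBayes on the 8 arrays, with Benjamini-Hochberg adjustment over 7791 genes. Calls needed an adjusted p under 0.05 and a change of 2-fold or more, and a spot counted as saturated from 80% of the array's highest signal. A bound sets the brighter group's mean against, per array of the dimmer group, the higher of the lowest signal above background and the probe's own. The procedure was tested on simulated data.

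Replicate numbers did not pair the arrays, so no block was used. The correlation of same-numbered deviations was -0.0448 between LPS and unstimulated. Over all pairs of groups it ran from -0.22 (unstimulated and Dex) to 0.00951 (LPS and Dex plus LPS). The members, gene lists and named genes were chosen with earlier results of these data known. Named were the 30 largest rises and 30 largest falls, up to 6 raised, 6 lowered and 6 uncalled members of each list, key genes of the LPS pathway and the genes nearest the thresholds. Of the lists fixed for this work, 1 is not reported here. The alternatives were another scaling, no background correction, no detection filter, the authors' own tables, the 4 compared arrays alone, a replicate block, another probe per gene and leaving out each array. The number of arrays limits the precision.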

Additional observations from a re-analysis of the deposited data

Results flagged for a closer look

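The LPS response of Dex-pretreated macrophages differed from that of vehicle-treated macrophages for 44 genes, by limma's test of the difference of the 2 responses with n = 2 arrays per group. Below 0, and so smaller or reversed with Dex, were Vcam1 (-3.95), Ifnb1 (-3.14), Klf4 (-2.61), Kat2b (-2.26), Mycl (-2.22), Krt16 (-2.14), Tnfsf10 (-1.91), Ccl2 (-1.83), Il6 (-1.49) and Ptgs2 (-1.49). Above 0 were Ptx3 (2.49), Trem1 (1.96), Mbp (1.96), Tsc22d3 (1.58), Rcl1 (1.58) and Il1b (1.27), where for Mbp and Tsc22d3 this means a smaller fall with Dex. Vcam1, Klf4, Kat2b, Tnfsf10, Ccl2, Ifnb1, Rcl1, Mbp and Tsc22d3 were above background on at least 1 unstimulated array. Il1b was saturated with LPS, and the values of the others were measured against the floor. The Dex arrays were not checked for this. Ifnb1 stood at 5.43 and 5.12 on the Dex arrays, so its value may also be measured against the floor. The count rose when Dex replicate 2 was left out and fell when any other of the 8 arrays was left out.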

How the results depend on the processing

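The numbers of genes higher and lower with LPS stayed within 1.5 times of 656 and 679 with median scaling, with no detection filter, on the 4 compared arrays alone, with a replicate block and with another probe per gene. When 1 array was left out they ran from 629 to 701 higher and from 659 to 726 lower. They were 422 and 351 without background correction, and in the authors' processed values 273 genes were lower. Without a minimum fold, an alternative chosen after seeing the data, they were 1269 and 1685. The authors' cubic spline table gave 161 and 43, and 107 of the 194 called genes named in the text lost their call there, against 27 in the processed values, 22 without background correction, 4 with median scaling and 1 with the block. Signs turned in the cubic spline table alone, to -0.45 for BC147527, 0.057 for Bcl2, 0.71 for Bcl2l11, -0.0019 for Cmpk2, 0.17 for Crybg3, 0.42 for Gpr65, 0.00416 for Idh1, -0.11 for Il15ra, -0.23 for Klf4, -0.0767 for Krt16, 0.22 for Lipa, -0.049 for Psmb8, -0.0420 for Slamf1 and -0.093 for Tgtp1. The cause was not tested. The 44 genes whose LPS response differed with Dex became 91 with median scaling, 72 without background correction, 21 without a detection filter, 92 in the processed values and 16 with the replicate block, and the cubic spline table gave 0 with limma (950 at an unadjusted p under 0.05). When 1 array was left out they ran from 3 to 377. The difference with Dex turned sign in the cubic spline table for Krt16 (0.00920), Mycl (0.055), Ptx3 (-0.17), Rcl1 (-0.11), Tnfsf10 (0.036), Trem1 (-0.20) and Tsc22d3 (-0.27). In that table Fkbp5, which glucocorticoids induce, had a signal of 426 and 414 on the Dex arrays, against 414 and 464 on the unstimulated arrays. It had 427 and 361 on the Dex plus LPS arrays, against 424 and 381 on the LPS arrays. A table in which this gene did not rise with Dex cannot show how far the difference depends on processing. The replicate block, with numbers that do not pair the arrays, changed the LPS counts to 654 and 679. Genes near background have only bounds, saturated probes can hide changes, and 2 technical arrays per group say nothing of the spread between cultures.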

Other observations

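Probes without a gene name in the annotation were called at shares near those of the named genes. Of 722 unnamed probes detected in the 6 h experiment, 64 were called higher and 64 lower with LPS. The shares among all genes tested were 8.42% and 8.72%. These probes were called in a fit over all detected probes and could not be assigned to a gene here.

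The cubic spline table of the 6 h experiment did not hold the levels of the unnormalized table under the same labels. In it Il6 had a signal of 432 and 457 on the LPS arrays, against 155 and 156 on the unstimulated arrays, where the unnormalized table had 4121 and 3874, against 150 and 167. Fkbp5, which glucocorticoids induce, was at 426 and 414 on its Dex arrays, against 414 and 464 on its unstimulated arrays. The unnormalized table had 3147 and 2832 on the Dex arrays, against 218 and 284. The rank correlation between the tables was 0.885 to 0.923 for arrays of the same label. For LPS replicate 1 it was 0.8846 with the same label and 0.9115 with the closest unnormalized array of any label. Only for Dex replicate 1 was the array of the same label the closest. No reason for the difference was tested.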
